A study of Mus musculus with 15 samples.

Results

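Tuft cell markers, a set of 8 genes (Dclk1, Trpm5, Pou2f3, Il25, Gnat3, Avil, Alox5 and Ltc4s), were followed through 15 poly-A RNA-seq libraries of mouse small intestinal organoids. The members were the rows whose symbol is one of these 8, out of 78298 genes in the count files, and the rule used no measured value. Organoids are cultures grown from intestinal crypts, here of female mice, and every condition was a stable line made by lentiviral transduction in which the weak, ubiquitous L30 promoter drove the transgene. Halo-NLS (L30prom_V5-Halo-GDGAGLIN-NLS_IRES_Puro) expressed the HaloTag with a nuclear localization signal and served as the control. SOX9-Halo_budding (L30prom_Sox9-GDGAGLIN-Halo-V5_IRES_Puro) and SOX9-mEGFP_budding (L30prom_Sox9-GDGAGLIN-mEGFP-V5_IRES_Puro) expressed tagged SOX9 and still formed buds. SOX9-Halo_spheroid and SOX9-mEGFP_spheroid came from the same 2 SOX9 lines after longer culture, when they had become round, and each carried a second transgene (L30prom_H2B-GDGAGLIN-mEGFP-V5_IRES_Zeo and L30prom_H2B-GDGAGLIN-mScarletI-V5_IRES_Neo, respectively). Each condition had 3 libraries from 1 line per tag, so that the tag and the line cannot be told apart, nor can the spheroid shape, the later passage and the second transgene. Between the spheroid conditions the second transgene and the passage differ along with the line, SOX9-Halo_spheroid being the later in the paper's order by time in culture.

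Tuft cells are rare secretory cells of the intestinal epithelium that sense luminal chemicals with a cascade resembling that of taste cells. A G protein with the alpha subunit gustducin (Gnat3) and phospholipase C raise intracellular calcium, which opens the cation channel TRPM5. Tuft cells are made under the transcription factor POU2F3, they release interleukin 25 (Il25) to alert type 2 immunity, and they synthesize leukotrienes with 5-lipoxygenase (Alox5) and leukotriene C4 synthase (Ltc4s). DCLK1, a microtubule-associated kinase, and advillin (Avil), an actin-bundling protein, are common labels of these cells. In bulk RNA, fewer tuft cells and less of a transcript per cell cannot be told apart.

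Between 28062722 and 40559766 reads per library were counted on genes (median 33491297). Levels are given as normalized counts, which are counts divided by the library size after TMM scaling and multiplied by the mean of these sizes. In these units 3 counts in a library, the limit that a count of 0 allows, came to 2.34 to 3.92. Sox9, from the transgene and the endogenous gene together, was at 515, 769 and 305 in Halo-NLS, at 11368, 11086 and 6487 in SOX9-mEGFP_budding, at 1336, 10538 and 6838 in SOX9-Halo_budding, at 8726, 16922 and 23654 in SOX9-mEGFP_spheroid and at 10522, 14834 and 14812 in SOX9-Halo_spheroid. Every library labelled SOX9 was above every Halo-NLS library, although SOX9-Halo_budding replicate 1 lay far below the rest of its condition. Without that library, no call on a tuft marker changed. Replicate 3 of Halo-NLS and of both budding conditions differed from replicates 1 and 2 in some genes. Olfm4, a crypt stem cell gene, was at 920.1, 484 and 3726 in Halo-NLS, at 170.1, 692 and 15543 in SOX9-mEGFP_budding and at 1310.3, 363 and 4592 in SOX9-Halo_budding, and the hormone gene Sst was lowest in replicate 3 of each of these conditions (108, 16.4 and 42). Lgr5, another stem cell gene, was at 379, 372 and 411 in Halo-NLS, 449, 496 and 2411 in SOX9-mEGFP_budding and 787, 1821 and 1375 in SOX9-Halo_budding, so that replicate 3 was apart in SOX9-mEGFP_budding and not in SOX9-Halo_budding. In Halo-NLS replicate 3, 40375 genes had a count, against 29003 and 24214 in replicates 1 and 2. Results that rested on these 3 libraries are given with and without them.

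The upstream sequences of Avil and Trpm5 are shown because these markers took different courses in the spheroids, and because POU2F3 belongs to the POU family, whose members bind an octamer. Each run is the 250 bases before the start of the gene in GRCm39, 5′ to 3′ on the strand of the gene, at chr10:126836328-126836577 (plus strand) for Avil and at chr7:142648380-142648629 (minus strand) for Trpm5, from the RefSeq promoter table (build GRCm38.p6) placed on GRCm39 by exact match. Capitals mark ATGCAAA or its reverse complement.
Avil: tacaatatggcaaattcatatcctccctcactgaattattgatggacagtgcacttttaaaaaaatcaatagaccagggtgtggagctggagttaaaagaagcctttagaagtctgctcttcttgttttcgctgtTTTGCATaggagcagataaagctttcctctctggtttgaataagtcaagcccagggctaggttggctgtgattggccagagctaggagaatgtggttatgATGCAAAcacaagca
Trpm5: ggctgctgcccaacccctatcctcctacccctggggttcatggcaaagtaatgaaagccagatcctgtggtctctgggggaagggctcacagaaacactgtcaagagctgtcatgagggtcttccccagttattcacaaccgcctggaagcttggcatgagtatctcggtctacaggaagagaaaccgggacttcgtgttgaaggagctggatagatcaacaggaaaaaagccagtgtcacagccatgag
Of the 8 markers, 6 were in the promoter table, with 7 promoters, each running from 250 bases before to 50 after the start. The octamer ATGCAAAT, searched on both strands, was in 0 of these 7 and in 1.74% of all 32851 promoters. The SOX core ACAATGG was in 0 of 7 and in 3.66% of all. The first 7 letters of the octamer, ATGCAAA, were searched after the full octamer had been found in no marker. They were in 1 of 7, that of Avil, with 2 copies, and in 4.63% of all promoters. A match to these letters describes the sequence and not a binding site.

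Trpm5, Pou2f3, Avil, Dclk1 and Ltc4s passed the filter on low counts and were tested, while Alox5, Gnat3 and Il25 did not. Per kilobase of exon, the mean level over the 15 libraries was 68.7 normalized counts for Ltc4s, 25.6 for Avil, 13.1 for Pou2f3, 12.6 for Trpm5, 1.64 for Dclk1, 0.905 for Alox5, 0.797 for Gnat3 and 0.185 for Il25. The order differed between conditions. Ltc4s was first in Halo-NLS (40.4) and in SOX9-Halo_spheroid (204), Avil in SOX9-mEGFP_budding (27.9, against 24.6 for Ltc4s) and in SOX9-mEGFP_spheroid (59.5, against 55.1), and Pou2f3 in SOX9-Halo_budding (26.1, against 19.5). Exon lengths are those of all annotated exons of a gene merged, so they can exceed a single transcript and include bases shared with other genes. The exon length of Dclk1, 21795 bases, was the longest of the 8, and the order depends on these lengths. The markers did not move as a block: Pou2f3 and Trpm5 fell from budding organoids to spheroids in both lines, Ltc4s rose in SOX9-Halo_spheroid, and Avil was lower in SOX9-Halo_spheroid than in SOX9-mEGFP_spheroid.

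**Figure D1:**
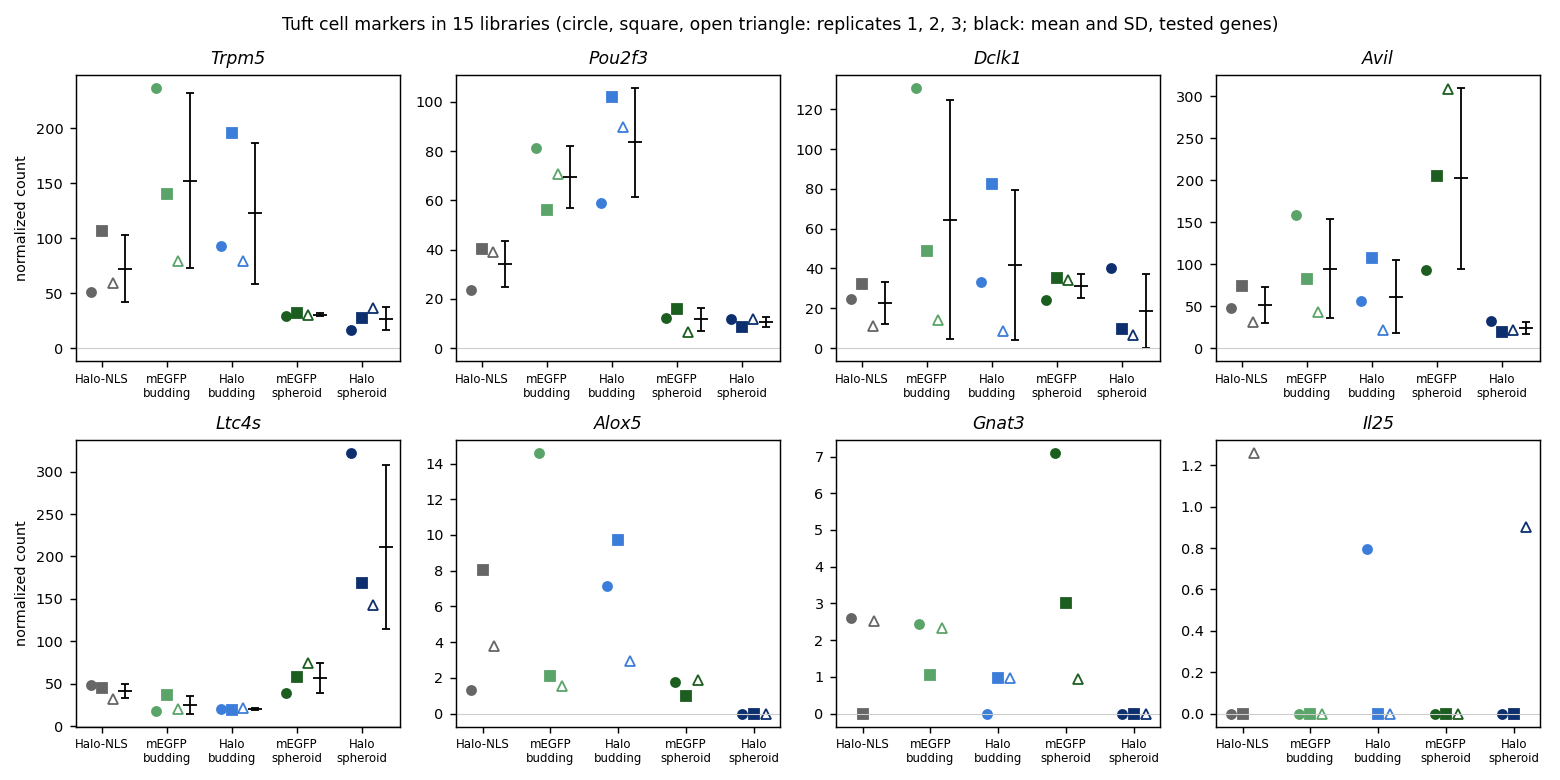
Normalized count (vertical axis, linear, a different range in each panel) of the 8 tuft cell markers in each of the 15 libraries, by condition (horizontal axis). Points are replicates and the black bars give the mean and SD of the 5 tested genes. Pou2f3 and Trpm5 are lowest in both spheroid conditions, Ltc4s is highest in SOX9-Halo_spheroid and Avil in SOX9-mEGFP_spheroid.

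Pou2f3 (ENSMUSG00000032015, chr9:43035228-43121666 in GRCm39, minus strand) encodes the transcription factor that tuft cells require. Its normalized counts were 23.5, 40.2 and 39 in Halo-NLS, 81.4, 56.1 and 70.9 in SOX9-mEGFP_budding and 58.9, 102 and 89.8 in SOX9-Halo_budding. They were 12.4, 16 and 6.67 in SOX9-mEGFP_spheroid and 11.8, 8.51 and 11.7 in SOX9-Halo_spheroid. All 6 spheroid libraries thus lay below all 3 Halo-NLS libraries, and all 6 budding libraries above them. The condition means were 34.2 ± 9.28 (SD, n = 3) in Halo-NLS, 69.4 ± 12.7 in SOX9-mEGFP_budding, 83.6 ± 22.3 in SOX9-Halo_budding, 11.7 ± 4.72 in SOX9-mEGFP_spheroid and 10.7 ± 1.88 in SOX9-Halo_spheroid. The ranges of the 2 budding conditions overlapped, as did those of the 2 spheroid conditions. From budding to spheroid, Pou2f3 fell by 2.56 on the log2 scale in the SOX9-mEGFP line (SE 0.36, edgeR adjusted p = 7.8e-05) and by 2.95 in the SOX9-Halo line (SE 0.37, edgeR adjusted p = 1.1e-05). Against Halo-NLS it fell by 1.54 in SOX9-mEGFP_spheroid (SE 0.37, edgeR adjusted p = 0.0032) and by 1.67 in SOX9-Halo_spheroid (SE 0.37, edgeR adjusted p = 0.0019). In budding organoids the log2 difference from Halo-NLS was 1.01 (SE 0.33, edgeR adjusted p = 0.053) and 1.28 (SE 0.33, edgeR adjusted p = 0.02) with mEGFP and Halo and neither passed the threshold. The call for SOX9-mEGFP_spheroid against Halo-NLS was lost without Halo-NLS replicate 2 (log2 change -1.40, edgeR adjusted p = 0.015), Halo-NLS replicate 3 (-1.45, adjusted p = 0.012), SOX9-mEGFP_spheroid replicate 1 (-1.59, adjusted p = 0.011) or SOX9-mEGFP_spheroid replicate 3 (-1.28, adjusted p = 0.017), and also without the filter on low counts (-1.48, adjusted p = 0.012), with library sizes alone (-1.28, adjusted p = 0.01) and with only the libraries compared (-1.59, adjusted p = 0.015). That for SOX9-Halo_spheroid was lost without its replicate 2 (-1.55, adjusted p = 0.012). With replicates 1 and 2 only of Halo-NLS and both budding conditions, the changes were -1.45 (edgeR adjusted p = 0.018) and -1.58 (edgeR adjusted p = 0.012), and neither was called.

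Trpm5 (ENSMUSG00000009246, chr7:142622890-142648379, minus strand), the channel at the end of the taste-like cascade, took a similar course. Its normalized counts were 51, 107 and 59.1 in Halo-NLS, 237, 140.2 and 79.4 in SOX9-mEGFP_budding and 93.1, 196 and 79 in SOX9-Halo_budding, with replicate 3 lowest in both budding conditions. They were 29.3, 32 and 30.5 in SOX9-mEGFP_spheroid and 16.6, 27.4 and 36.9 in SOX9-Halo_spheroid. Every spheroid library lay below every other library, while Halo-NLS overlapped both budding conditions. Trpm5 fell from budding to spheroid by 2.30 on the log2 scale in the SOX9-mEGFP line (SE 0.47, edgeR adjusted p = 0.0016) and by 2.16 in the SOX9-Halo line (SE 0.47, edgeR adjusted p = 0.0016). Against Halo-NLS the log2 difference was -1.24 (SE 0.47, edgeR adjusted p = 0.038) in SOX9-mEGFP_spheroid and -1.41 (SE 0.47, edgeR adjusted p = 0.022) in SOX9-Halo_spheroid, not past the threshold. Without SOX9-Halo_spheroid replicate 1 the change in the SOX9-Halo line was -1.92 (edgeR adjusted p = 0.011), and without the filter on low counts the difference of SOX9-Halo_spheroid from Halo-NLS was called (-1.35, edgeR adjusted p = 0.007). Trpm5 shares 316 of its 6398 exon bases with Tssc4 on the opposite strand, whose mean CPM was between 16.2 and 28.6 by condition, against 0.852 to 4.46 for Trpm5. The counting ignored strand, and here as for the other markers a read on more than 1 gene was counted for none. Gnat3 (ENSMUSG00000028777, chr5:18167547-18225473, plus strand), the gustducin gene upstream of this channel, had between 0 and 8 counts in a library and 24 in all. SOX9-Halo_spheroid had 0 in its 3 libraries, against 8, 3 and 1 in SOX9-mEGFP_spheroid, which put it at least 3.79-fold lower, with the floor of 3 counts taken over the condition. Without SOX9-mEGFP_spheroid replicate 1 the bound was 1.96-fold. Such bounds allow for counting error in the condition at 0 only. The count of the other condition was taken as it stands, and the spread between replicates is not covered. Leaving out libraries from these bounds was added after the values were seen.

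Dclk1 (ENSMUSG00000027797, chr3:55149618-55446493, plus strand) was called in 0 of 9 comparisons by edgeR and in 0 by DESeq2, and 0 had an unadjusted p under 0.05. Its normalized counts were 24.8, 32.1 and 11.3 in Halo-NLS, 131, 48.8 and 14 in SOX9-mEGFP_budding, 33.4, 82.7 and 8.78 in SOX9-Halo_budding, 24, 35 and 34.3 in SOX9-mEGFP_spheroid and 40.3, 9.46 and 6.3 in SOX9-Halo_spheroid. Replicate 3 was lowest in Halo-NLS and in both budding conditions, and neighbouring conditions overlapped throughout the order of levels. The largest log2 difference, 1.47 between SOX9-mEGFP_budding and Halo-NLS, had an SE of 0.84 (edgeR adjusted p = 0.22).

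Avil (ENSMUSG00000025432, chr10:126836578-126856863, plus strand) separated the 2 spheroid conditions, which differ in passage and second transgene as well as in line. Its normalized counts were 48.4, 74.6 and 31.4 in Halo-NLS, 159, 82 and 43.6 in SOX9-mEGFP_budding and 55.7, 107 and 21.5 in SOX9-Halo_budding. They reached 93.2, 205 and 309 in SOX9-mEGFP_spheroid and only 32, 18.9 and 21.6 in SOX9-Halo_spheroid. The ranges of the 2 spheroid conditions did not overlap, and SOX9-mEGFP_spheroid lay above all 3 Halo-NLS libraries. Avil was lower in SOX9-Halo_spheroid than in SOX9-mEGFP_spheroid (log2 difference -3.07, SE 0.63, edgeR adjusted p = 0.002). The log2 difference of SOX9-mEGFP_spheroid from Halo-NLS was 1.97 (SE 0.59, edgeR adjusted p = 0.013) and that of SOX9-Halo_spheroid was -1.10 (SE 0.62, edgeR adjusted p = 0.16). That of SOX9-mEGFP_spheroid was called without SOX9-Halo_budding replicate 2 (1.97, edgeR adjusted p = 0.0082), SOX9-Halo_budding replicate 3 (1.99, adjusted p = 0.008) or SOX9-mEGFP_spheroid replicate 1 (2.31, adjusted p = 0.0074), with library sizes alone (2.23, adjusted p = 0.005), without the filter on low counts (2.01, adjusted p = 5.6e-06), with a replicate block (2.13, adjusted p = 0.0094) and by DESeq2 (1.94, adjusted p = 0.0061). The difference between the lines in their budding-to-spheroid change was -2.45 (SE 0.84, edgeR adjusted p = 0.072), and it too was called without the filter (edgeR adjusted p = 0.00042), as was the change within the SOX9-Halo line (-1.35, edgeR adjusted p = 0.0084). Without SOX9-Halo_spheroid replicate 2 or 3 the difference between the spheroids was -2.92 (edgeR adjusted p = 0.015) or -3.01 (edgeR adjusted p = 0.014). Avil shares 165 of its 3398 exon bases with Tsfm on the opposite strand, whose mean CPM was 27.9 in SOX9-mEGFP_spheroid and 40.1 in SOX9-Halo_spheroid, against 6.21 and 0.752 for Avil.

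Ltc4s (ENSMUSG00000020377, chr11:50127288-50129443, minus strand), whose enzyme joins glutathione to a leukotriene, rose in SOX9-Halo_spheroid. Its normalized counts were 48.4, 44.8 and 32.7 in Halo-NLS, 18.2, 37.4 and 21 in SOX9-mEGFP_budding and 19.9, 19.5 and 21.5 in SOX9-Halo_budding. They were 39, 58.1 and 74.3 in SOX9-mEGFP_spheroid and 322, 169 and 143 in SOX9-Halo_spheroid. All 3 SOX9-Halo_spheroid libraries lay above the other 12. On the log2 scale Ltc4s rose in SOX9-Halo_spheroid by 2.33 against Halo-NLS (SE 0.37, edgeR adjusted p = 0.00012), by 3.37 against SOX9-Halo_budding (SE 0.39, edgeR adjusted p = 5.6e-06) and by 1.88 against SOX9-mEGFP_spheroid (SE 0.36, edgeR adjusted p = 0.0012). The difference between the lines in their budding-to-spheroid change was 2.22 (SE 0.53, edgeR adjusted p = 0.011), missed the threshold of 0.01, and passed it by DESeq2 (adjusted p = 0.0022). Spheroids of the SOX9-mEGFP line differed from its budding organoids by 1.16 (SE 0.38, edgeR adjusted p = 0.031). Without SOX9-mEGFP_spheroid replicate 1 the difference between the spheroids was 1.66 (edgeR adjusted p = 0.01, just above the threshold). Ltc4s shares 268 of its 1037 exon bases with Gm26542 on the opposite strand. The mean CPM of Ltc4s and Gm26542 was 1.08 and 0.769 in Halo-NLS, 0.766 and 0.918 in SOX9-mEGFP_budding, 0.642 and 0.59 in SOX9-Halo_budding, 1.75 and 0.512 in SOX9-mEGFP_spheroid and 6.55 and 1.41 in SOX9-Halo_spheroid. Both were thus highest in SOX9-Halo_spheroid. Reads assigned to both genes were counted for neither, and any other part of Gm26542 in the Ltc4s values was not tested.

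Alox5 (ENSMUSG00000025701, chr6:116387032-116438139, minus strand), whose enzyme makes the precursor that leukotriene C4 synthase uses, was scarce. It had 1, 7 and 3 counts in Halo-NLS, 12, 2 and 2 in SOX9-mEGFP_budding, 9, 10 and 3 in SOX9-Halo_budding, 2, 1 and 2 in SOX9-mEGFP_spheroid and 0, 0 and 0 in SOX9-Halo_spheroid. The 11 counts of Halo-NLS and the 22 of SOX9-Halo_budding put SOX9-Halo_spheroid at least 4.54-fold and at least 6.67-fold lower, and the first of these bounds was 2.57-fold without Halo-NLS replicate 2. The condition with the most Ltc4s thus had no Alox5 count. Il25 (ENSMUSG00000040770, chr14:55170152-55173294, plus strand), the cytokine of tuft cells, had 3 counts in all, 1 in each of 3 libraries, and no difference between conditions was detectable at this depth.

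Calls required an edgeR adjusted p no greater than 0.01, a change of 2-fold or more, and a mean of 10 or more normalized counts. In SOX9-mEGFP_budding against Halo-NLS, 0 of the 5 tested markers were called, when 1.99% of all 17560 tested genes were called higher and 0.763% lower. In SOX9-Halo_budding against Halo-NLS, 0 were called, against 2.49% of all genes higher and 1.26% lower. In each, 2 of the 5 had an unadjusted p under 0.05, and DESeq2 called 0 with mEGFP and 1, Pou2f3, with Halo. In SOX9-mEGFP_spheroid against Halo-NLS, 1 marker was called lower, Pou2f3, when 15.3% of all genes were called higher and 12.1% lower. In SOX9-Halo_spheroid against Halo-NLS, Ltc4s was called higher and Pou2f3 lower, against 13.6% higher and 15.3% lower of all genes. Within the SOX9-mEGFP line, Trpm5 and Pou2f3 were called lower in spheroids, when 8.55% of all genes were higher and 7.88% lower. Within the SOX9-Halo line, Ltc4s was higher and the same pair lower, against 10.5% higher and 14.7% lower. Between the budding conditions 0 of 5 were called (0.29% of all genes higher and 0.165% lower with Halo), with 0 at an unadjusted p under 0.05 and 0 by DESeq2. Between the spheroids, Ltc4s was higher and Avil lower with Halo, against 3.59% of all genes higher and 9.58% lower. For the difference between the lines in their budding-to-spheroid change 0 of 5 were called, with 2 at an unadjusted p under 0.05 and 1, Ltc4s, by DESeq2, when 1.81% of all genes were called higher and 5.58% lower. These comparisons share libraries, so they are not independent of each other.

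**Figure D2:**
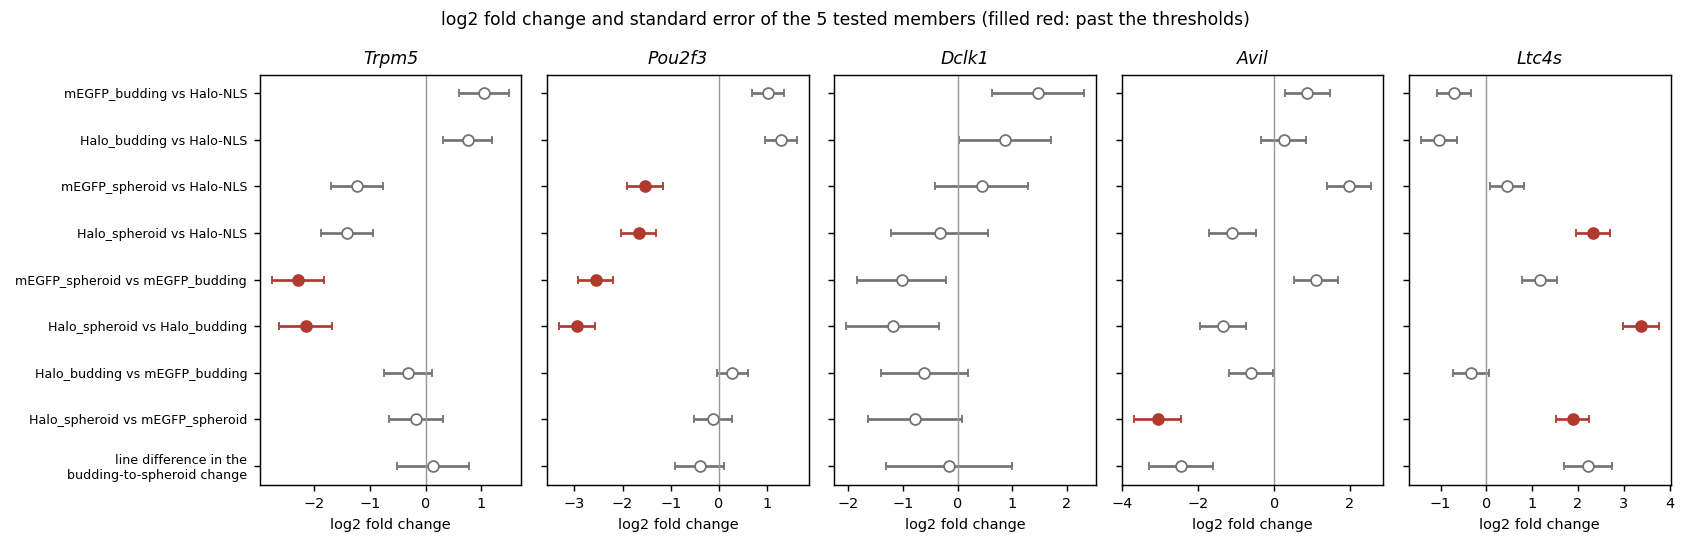
Log2 fold change (horizontal axis) and its standard error for the 5 tested markers in 9 comparisons (vertical axis), with filled red points past the thresholds. Pou2f3 has filled points in 4 comparisons, all below 0, and Dclk1 in none.

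Across 6 lists of other tuft genes, which together held 59 genes of which 44 were tested, both directions were seen in spheroids. In SOX9-Halo_spheroid against Halo-NLS 12 rose and 13 fell, with a median log2 change of -1.01 (median of all tested genes -0.01), when 13.6% of all tested genes were called higher and 15.3% lower. In SOX9-mEGFP_spheroid 12 rose and 7 fell, with a median of -0.41 (all genes 0.03), against 15.3% higher and 12.1% lower of all genes. In budding organoids 3 rose and 1 fell with mEGFP (1.99% and 0.763% of all genes), and 2 rose and 1 fell with Halo (2.49% and 1.26%). Between the budding conditions 0 of 44 were called by edgeR and 0 by DESeq2, with 2 at an unadjusted p under 0.05, when 0.29% of all genes were called higher and 0.165% lower.

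Among the transcription regulators, Pou2af2, which encodes a coactivator of POU2F3, fell in both spheroid conditions. Its normalized counts were 85, 91.8 and 116 in Halo-NLS, 8.87, 12 and 3.81 in SOX9-mEGFP_spheroid and 1.18, 4.73 and 3.6 in SOX9-Halo_spheroid. Neither spheroid condition overlapped with Halo-NLS, while the 2 spheroid conditions overlapped with each other. The log2 change against Halo-NLS was -3.55 (SE 0.43, edgeR adjusted p = 1.1e-05) and -4.84 (SE 0.48, edgeR adjusted p = 1e-06). Pou2af3, a related coactivator, was not called, and its log2 difference from Halo-NLS was 0.84 (edgeR adjusted p = 0.019) and 0.26 (edgeR adjusted p = 0.46) in these conditions. Hmx2, a homeobox gene, was at 77, 95.5 and 84.6 in SOX9-Halo_spheroid and at most 15.1 in any other library. It rose there by 4.14 on the log2 scale against SOX9-mEGFP_spheroid (SE 0.50, edgeR adjusted p = 1.9e-05), while its neighbour Hmx3 had 0 counts in all 6 spheroid libraries. Runx1 rose in both spheroid conditions, by 2.17 and 2.33 on the log2 scale against Halo-NLS (edgeR adjusted p = 0.00017 and 7e-05). Spib, an ETS family factor, fell in SOX9-Halo_spheroid, which had 3 counts against 77 in Halo-NLS. In all, 1 of 6 tested regulators rose and 1 fell in SOX9-mEGFP_spheroid against Halo-NLS, and 2 rose and 2 fell in SOX9-Halo_spheroid, when 15.3% of all tested genes were called higher and 12.1% lower in the first comparison and 13.6% higher and 15.3% lower in the second.

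Of 14 tested signalling adaptors, 4 fell and 2 rose in SOX9-mEGFP_spheroid against Halo-NLS, and 5 fell and 3 rose in SOX9-Halo_spheroid. Of all genes 12.1% were lower and 15.3% higher in the first comparison, and 15.3% lower and 13.6% higher in the second. Matk, a kinase, fell and Limd2 rose in both, while Skap2 rose in SOX9-Halo_spheroid. The log2 change in SOX9-mEGFP_spheroid was -3.38 for Irag2 (SE 0.80, edgeR adjusted p = 0.0031) and -3.75 for Pik3r5, a regulatory subunit of phosphoinositide 3-kinase (SE 0.87, edgeR adjusted p = 0.0034). In SOX9-Halo_spheroid Pik3r5 had 0 counts against 77 in Halo-NLS, at least 31.8-fold lower. Sh2d7, an adaptor with an SH2 domain, had low levels in replicate 3 of the budding conditions, at 42.5, 31.2 and 1.56 in SOX9-mEGFP_budding and 24.7, 43.8 and 0 in SOX9-Halo_budding, and Pou2f3 was not low in these libraries. With replicate 3 of the 3 non-spheroid conditions left out, the counts of called tuft-list genes went from 16 to 22 within the SOX9-mEGFP line and from 21 to 25 within the SOX9-Halo line, when the share of all tested genes called went from 16.4% to 17.4% and from 25.3% to 25.4%. Plcg2, a phospholipase that immune and tuft cells use, ran the other way, at 31.4, 53.9 and 33.9 in Halo-NLS and 2198, 2762 and 2840.4 in SOX9-Halo_spheroid.

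Of the 5 other eicosanoid enzymes, Ptgs1 and Pla2g4a rose in both spheroid conditions against Halo-NLS, and Lta4h fell in SOX9-Halo_spheroid. Of all tested genes, 15.3% were called higher and 12.1% lower in SOX9-mEGFP_spheroid, and 13.6% higher and 15.3% lower in SOX9-Halo_spheroid. Ptgs1, which encodes cyclooxygenase 1, was at 6.53, 3.44 and 2.51 in Halo-NLS, 158, 201 and 238 in SOX9-mEGFP_spheroid and 2945, 3078 and 3158 in SOX9-Halo_spheroid. Its log2 change against Halo-NLS was 5.55 and 9.49 (edgeR adjusted p = 2.7e-08 and 3.4e-10), and it was 3.94 higher in SOX9-Halo_spheroid than in SOX9-mEGFP_spheroid (SE 0.26, edgeR adjusted p = 7.1e-08). Pla2g4a, whose enzyme frees arachidonic acid from membranes, rose already in budding organoids, by 3.91 on the log2 scale with either tag (SE 0.60, edgeR adjusted p = 0.0011 with mEGFP and 0.0013 with Halo). Lta4h, whose enzyme takes the same precursor to another leukotriene, fell by 1.55 in SOX9-Halo_spheroid against Halo-NLS (SE 0.19, edgeR adjusted p = 7.7e-06). Alox5ap, which presents arachidonic acid to 5-lipoxygenase, was at 16.9, 29 and 27.6 in SOX9-mEGFP_spheroid and at 3.55, 5.68 and 4.5 in SOX9-Halo_spheroid, and its mean normalized count of 9.92 kept it below the limit for a call.

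Of 8 tested chemosensory genes, Itpr2 and Gprc5c rose in SOX9-mEGFP_spheroid against Halo-NLS, and Itpr2 rose and Rgs13 fell in SOX9-Halo_spheroid, when 15.3% of all tested genes were called higher and 12.1% lower in the first comparison and 13.6% higher and 15.3% lower in the second. For Itpr2, a calcium channel of the endoplasmic reticulum that opens with inositol trisphosphate, the log2 change was 1.61 (SE 0.37, edgeR adjusted p = 0.0026) and 1.41 (SE 0.37, edgeR adjusted p = 0.0057). Gprc5c was at 398, 439.6 and 629.5 in SOX9-mEGFP_spheroid and at most 27.2 in any other library, and the log2 difference from SOX9-mEGFP_spheroid was -6.46 in SOX9-Halo_spheroid (SE 0.60, edgeR adjusted p = 1.8e-06). Rgs13, a brake on G protein signalling, had 0 counts in SOX9-Halo_spheroid against 103 in SOX9-Halo_budding, at least 31.2-fold lower. Of 9 tested cytoskeleton and surface genes, 5 rose and 1 fell in SOX9-mEGFP_spheroid against Halo-NLS, and 4 rose and 2 fell in SOX9-Halo_spheroid, against the same shares of all genes. Krt23, Cd24a and Ly6g6d rose in both, by 2.58, 2.36 and 4.90 on the log2 scale in SOX9-mEGFP_spheroid and by 1.61, 2.17 and 4.14 in SOX9-Halo_spheroid, and Kctd12 fell in SOX9-Halo_spheroid. Espn, an actin-bundling protein of microvilli, fell in every SOX9 condition, from 8328, 9349 and 7868 in Halo-NLS to 2071, 1963 and 1050.4 in SOX9-mEGFP_budding and 41.5, 20.8 and 36 in SOX9-Halo_spheroid. Siglecf, a surface lectin, was at 71, 55.1 and 59 in SOX9-mEGFP_spheroid and 0, 7.57 and 1.8 in SOX9-Halo_spheroid (log2 difference -4.19, SE 0.59, edgeR adjusted p = 8.9e-05). Of the 2 tested effectors, Inpp5j, a phosphatase of phosphoinositides, fell in both spheroid conditions against Halo-NLS, by 2.24 and 2.53 on the log2 scale (edgeR adjusted p = 4e-06 and 7.8e-07). Atp2a3, a calcium pump of the endoplasmic reticulum, dropped from 2050.2, 3853 and 902 in SOX9-Halo_budding to 27.2, 7.57 and 6.3 in SOX9-Halo_spheroid (log2 change -7.42, SE 0.62, edgeR adjusted p = 2.2e-07) and was at 4713, 3629.8 and 4462 in SOX9-mEGFP_spheroid. Chat and Tslp were too low to be tested.

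**Figure D3:**
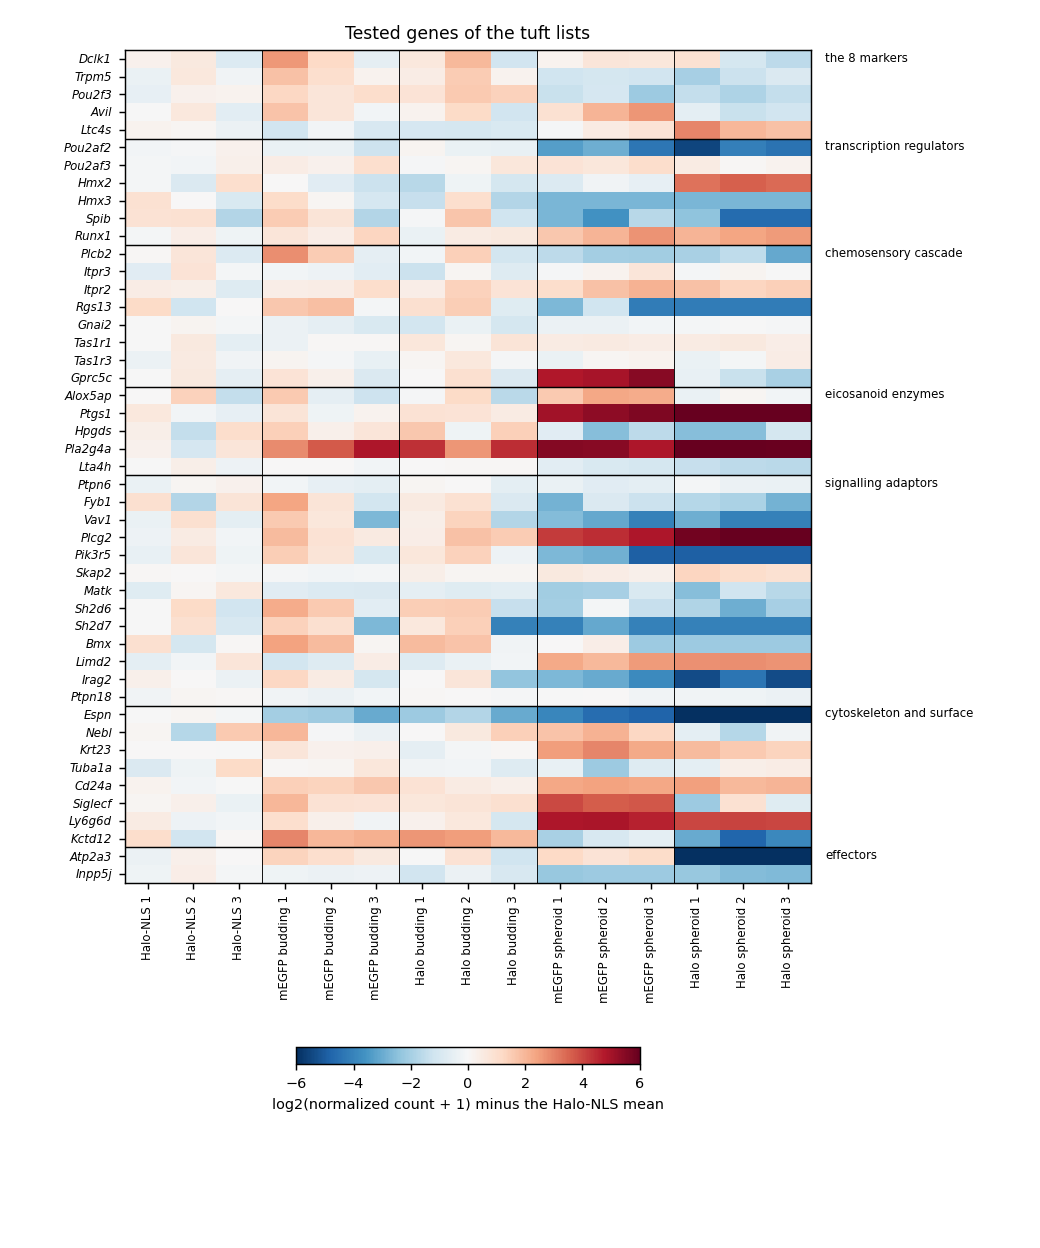
Colour gives log2(normalized count + 1) minus the Halo-NLS mean for the tested tuft genes reported here (rows) in each library (columns), grouped by list, with values beyond the ends of the scale drawn in its end colours. Blue rows in the spheroid columns include Pou2af2, Pik3r5 and Irag2, and red rows Ptgs1, Pla2g4a and Plcg2.

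Genes through which tuft cells receive type 2 signals, receptor subunits and the transcription factor Stat6, were measured beside them, 4 of 5 being tested. Il17rb, a subunit of the receptor for interleukin 25, was at 763, 774 and 894 in SOX9-mEGFP_spheroid and at 212, 145 and 115 in SOX9-Halo_spheroid, and the log2 difference was -2.37 (SE 0.29, edgeR adjusted p = 2.3e-05). Against Halo-NLS, Il17rb and Il13ra1 were called higher in SOX9-mEGFP_spheroid, Il13ra1 by 2.59 (SE 0.48, edgeR adjusted p = 0.00052). Il4ra fell by 1.26 in SOX9-Halo_spheroid (SE 0.28, edgeR adjusted p = 0.0017). Of all tested genes, 15.3% were called higher and 12.1% lower in the first comparison, and 13.6% higher and 15.3% lower in the second.

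Markers of most other epithelial cell types moved with the conditions too, and the counts below stand against 15.3% of all genes called higher and 12.1% lower in SOX9-mEGFP_spheroid, and 13.6% higher and 15.3% lower in SOX9-Halo_spheroid. Enteroendocrine genes fell in both spheroid conditions against Halo-NLS, 18 of 19 in each, with a median log2 change of -7.54 and -9.58, and their summed normalized count was 42046, 35169.8 and 15780.4 in Halo-NLS against 218, 164 and 93.3 in SOX9-mEGFP_spheroid. Goblet cell genes fell in SOX9-Halo_spheroid, 9 of 9, with a median log2 change of -9.49, against a median of -0.18 in SOX9-mEGFP_spheroid. Of 6 Paneth genes, 5 fell and Mmp7 rose in SOX9-mEGFP_spheroid, and 6 fell in SOX9-Halo_spheroid, while the 7 enterocyte genes fell in both. Of 6 crypt base stem genes, 2 rose and 1 fell in SOX9-mEGFP_spheroid and 2 fell in SOX9-Halo_spheroid. The sum over the 8 tuft markers, in contrast, was 200, 306 and 181 in Halo-NLS, 207, 350.5 and 457 in SOX9-mEGFP_spheroid and 423, 234 and 221 in SOX9-Halo_spheroid. Its largest part was Avil in SOX9-mEGFP_spheroid (mean 202) and Ltc4s in SOX9-Halo_spheroid (mean 212). The sum thus hides the lower levels of Pou2f3 and Trpm5 in both spheroid conditions. Mast cells and other leukocytes also express some of these genes. Of 10 mast cell genes, Cpa3, Fcer1a and Ms4a2 had 0 counts in all 15 libraries, and the most abundant was Kit, which goblet and Paneth cells also express. The summed mast cell list was at 345, 441 and 220.0 in Halo-NLS, 1116, 1016 and 1701 in SOX9-mEGFP_budding, 577, 1324 and 562 in SOX9-Halo_budding, 154, 131 and 165 in SOX9-mEGFP_spheroid and 10.7, 2.84 and 6.3 in SOX9-Halo_spheroid. Ptprc, the general leukocyte marker, had at most 5 counts in a library except for 17 in Halo-NLS replicate 3. Of the mast cell genes Kit and Hdc were tested, and against Halo-NLS Hdc fell in SOX9-mEGFP_spheroid and both fell in SOX9-Halo_spheroid. Of 10 other leukocyte genes 5 were tested. In SOX9-mEGFP_spheroid against Halo-NLS Cd68, the most abundant, and Csf1r rose (log2 change 2.57 and 2.33), and the median of the 5 was -0.44. In SOX9-Halo_spheroid Cd68 rose (2.59) and Itgam fell, with a median of -2.00. Of 6 neuron genes 3 were tested, of which Map2 rose and Snap25 fell in both spheroid conditions and Tubb3 fell in SOX9-mEGFP_spheroid. Of 9 stroma genes 2 were tested, and Pdgfrb fell in both. The part of these cell types in the tuft gene values was not tested.

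**Figure D4:**
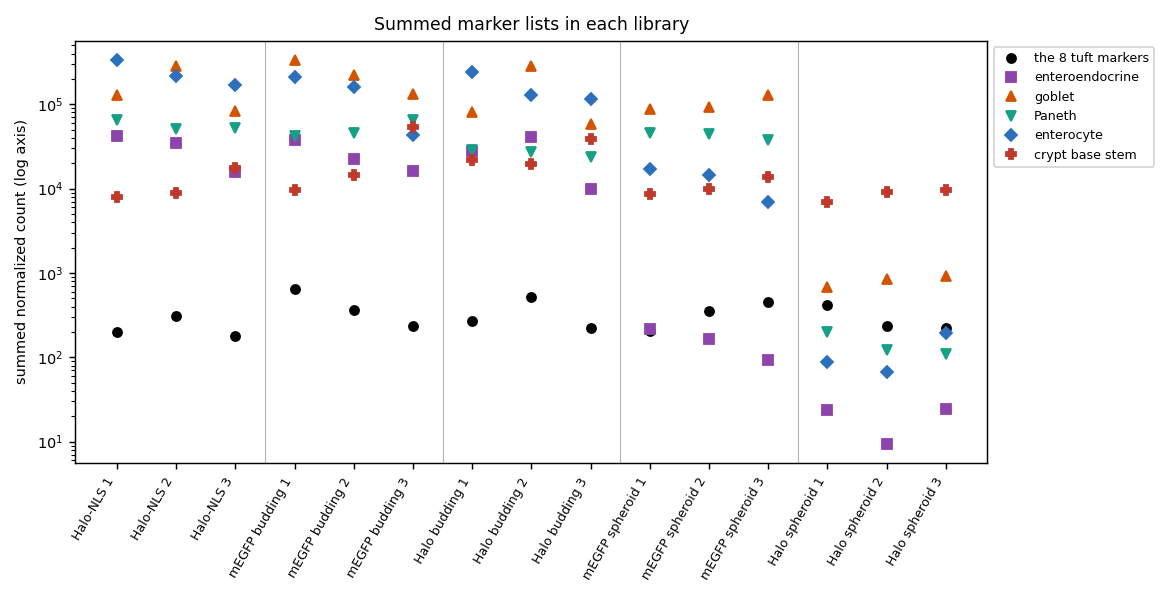
Summed normalized count of 6 marker lists (vertical axis, log scale) in each of the 15 libraries (horizontal axis). The tuft markers stay between 181 and 644, while the enteroendocrine sum falls below 220 in all 6 spheroid libraries.

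Across the 15 libraries Trpm5 and Pou2f3 correlated at r = 0.89 in log2 CPM, and Ltc4s correlated with them at r = -0.80 and r = -0.83. Dclk1 and Avil correlated at r = 0.72. The genes with the profile most like that of Pou2f3 among 15717 were Dner (r = 0.962), ENSMUSG00000129666, which has no symbol in the files (r = 0.961), and Il17rd (r = 0.956). For Trpm5 they were Pcnx1 (r = 0.949), Cfap65 (r = 0.946) and Dnase1 (r = 0.943). For Ltc4s they were Susd1 (r = 0.962), Sh3bgrl3 (r = 0.958) and Ndrg4 (r = 0.946). For Avil they were Bmp2 (r = 0.936), ENSMUSG00000134341 and Rab27a (r = 0.915 for both), and for Dclk1 ENSMUSG00000137365 (r = 0.942), Lipc (r = 0.9) and Calcoco1 (r = 0.882). These are descriptions over 15 libraries that fall into 5 conditions.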

How the data were processed

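The authors extracted RNA with TRIzol, selected poly-A RNA and sequenced 15 libraries, 3 for each of 5 conditions. Per the labels they trimmed reads with cutadapt 4.5, aligned them to the mouse genome mm39 (GRCm39) with STAR, and counted reads on genes with HTSeq 2.0.2 in union mode without regard to strand. The deposited counts are whole numbers of reads per gene, not normalized. Reads on no gene were 1.83% to 6.09% and on more than 1 gene 9.65% to 13.6% of each library, and these stayed out of library sizes. A deposited table of normalized counts and 7 comparison tables (mean, log2 fold change, standard error, Wald score, p-value and adjusted p) were not used.

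Groups came from the labels. The 8 markers, the 16 other gene lists and the comparisons were chosen with earlier results of these data known. Genes were filtered with filterByExpr by condition, which left 17560, scaled with TMM and fitted in 1 quasi-likelihood model over the 15 libraries with edgeR 4.0.16 in R 4.3.3. P-values were adjusted after Benjamini-Hochberg over all 17560 genes. The standard error of a log2 change was taken as its size over the root of the F statistic. The scripts were tested on simulated data. Alternatives were other scalings, no filter, DESeq2 1.42.0, only the libraries compared, a replicate block, a looser threshold and each library left out. Leaving out replicate 3 of Halo-NLS and of both budding conditions was added after the data were seen. The genes named are the markers, Sox9, the 3 with the highest mean in each list, the called genes of the tuft and type 2 receptor lists, and for each tested marker the 3 of highest Pearson r in log2 CPM over the 15 libraries. Olfm4, Sst, Lgr5, Sh2d7, Hmx3, Chat, Alox5ap, Ptprc, Cpa3, Fcer1a and Ms4a2 were chosen after their values were seen, as was the motif ATGCAAA. Positions and exon lengths are from GENCODE M39, in which 78168 of 78298 identifiers were found. The replicate numbers were taken to pair the libraries where the correlation of deviations from the condition means was over 0.1 for all 3 numbers. This held in 1 of 10 pairs of conditions, SOX9-Halo_budding and SOX9-Halo_spheroid (0.403, 0.234 and 0.344 over 11054 genes). Single numbers correlated more strongly in some other pairs. The values were 0.470, 0.817 and -0.055 for Halo-NLS and SOX9-Halo_budding, and 0.040, 0.358 and 0.740 for the budding conditions. The series calls its replicates biological, and within a condition they come from 1 line. Some genes of the tuft lists are included in the counts over lists and are not reported here by name.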

Additional observations from a re-analysis of the deposited data

Results flagged for a closer look

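The 2 SOX9 lines differed in their budding-to-spheroid change for 7 genes of the tuft and type 2 receptor lists, by an interaction test in edgeR over all 17560 genes at an adjusted p of at most 0.01. In SOX9-Halo minus SOX9-mEGFP, the log2 difference was -7.44 for Atp2a3, -6.49 for Gprc5c, -3.73 for Espn, -3.66 for Siglecf and -1.68 for Il17rb, and 4.5 for Hmx2 and 3.40 for Ptgs1. Of all tested genes, 1.81% were called higher and 5.58% lower in this test. Each condition is 1 line, so the tag cannot be told apart from the line. The spheroids of the 2 lines also differ in passage and in second transgene, which cannot be told apart from the line either.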

How the results depend on the processing

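Under 1045 alternatives for the log2 fold changes of the 5 tested markers, 1011 kept their side of the threshold, 14 lost a call and 20 gained one, and 0 changed sign with a call. Only a result that was called could lose a call, and most of the 1045 started from a result that was not. Losses were most frequent for Pou2f3 in SOX9-mEGFP_spheroid against Halo-NLS. In SOX9-mEGFP_spheroid against Halo-NLS, where 1 marker was called, the count was 2 by DESeq2, 2 with a replicate block (Avil was added, at a log2 change of 2.13), 3 at an adjusted p of at most 0.05 alone, 0 with only the libraries compared, and 0 with replicates 1 and 2 only in Halo-NLS and both budding conditions. In SOX9-Halo_budding against Halo-NLS, where 0 were called, it was 1 with library sizes alone, 1 by DESeq2 and 1 at 0.05, and for the line difference in the change from budding to spheroid it was 2 without the filter, 1 by DESeq2 and 1 at 0.05. In SOX9-Halo_spheroid against Halo-NLS it was 1 in place of 2 with replicates 1 and 2 only, and 3, with Trpm5 added, without the filter and at 0.05. Leaving out 1 library gave 0 to 2 calls for SOX9-mEGFP_spheroid against Halo-NLS, 1 to 2 for SOX9-Halo_spheroid against Halo-NLS and 1 to 2 between the spheroids. The replicate block changed no other count of markers, also within the SOX9-Halo line, where the numbers paired the libraries and 3 markers were called with and without it. With library sizes alone the median of all genes against Halo-NLS moved from 0.01 to 0.31 in SOX9-Halo_budding. The causes were not tested. Depth limits Alox5, Gnat3 and Il25, which have 81 counts together.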
